A study of Mus musculus with 8 samples.

Results

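The 40 genes described here are cell proliferation genes, whose products copy DNA, drive the entry into mitosis and pull the chromosomes apart. They were taken by symbol from the 25965 genes of the deposited expression values of mouse lung, and all 40 were found. RNA from whole lungs was sequenced at E18.5 (fetuses) and P1.5 (neonates) in the genotypes *Wfdc2*+/+ and *Wfdc2*GFP/GFP, with 2 libraries in each of the 4 groups and 8 in all. On both alleles of *Wfdc2*GFP/GFP mice a GFP cassette stands in place of a part of exon 1 and the whole of exon 2 of *Wfdc2*, the gene of a secreted protease inhibitor. The line came from TT2 embryonic stem cells aggregated with ICR morulae, and its selection marker was removed by a cross with CAG-Cre mice. The groups are labelled by genotype and stage alone. *Wfdc2* itself had 8038 to 32845 reads in the *Wfdc2*+/+ libraries and 0 to 12 in the *Wfdc2*GFP/GFP libraries.

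A dividing cell passes through a fixed order of steps. The loading of the MCM proteins on DNA before S phase licenses its replication. The replication fork then copies the genome with nucleotides from ribonucleotide reductase. Cyclin B with CDK1 starts mitosis, in which kinetochores, spindle motors and checkpoint kinases part the chromosomes before the cell is cleaved. Most of these genes are transcribed only in dividing cells, and their promoters are known for E2F sites in genes of S phase and for CCAAT boxes with a CHR (cell cycle genes homology region) in genes of mitosis. The lung of the late mouse fetus is in its saccular stage and still holds many dividing cells. In whole lung, fewer dividing cells and less mRNA per cell cannot be told apart.

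The members moved together, with a median Pearson r of 0.93 over the 8 libraries in the 780 pairs of members (lowest 0.62). These correlations are a description, since the pairs share libraries and their scaling, and no r of other gene pairs is given beside them. Promoter sequences were examined as a description too, and not as a test of why the members moved together. RefSeq windows on GRCm38.p6 were matched by symbol for 33 of the 40 members, which gave 35 windows because *Mcm7* and *Prc1* each have 2 starts. For *Tpx2*, *Aurkb*, *Ccne2*, *Foxm1*, *Kif20a*, *Mcm4* and *Ccna2* none is given. In the 250 bases upstream of the start, searched on both strands, CCAAT was found in 80% of the 35 member windows and in 33.8% of all 32851 windows. A CHR, searched as TTTGAA or TTCGAA, was found in 31.4% against 17.1%. An E2F core was searched as TTCCCGC, as the form TTGGCGC, as the form TTCGCGC and as the form TTGCCGC, and was found in 28.6% against 7.89%. An E2F core and a CCAAT can share letters, as in *Ccnb1*, and so can 2 E2F cores, as in *Mcm6*, and TTCGAA reads alike on both strands. The ends of 3 of the windows, that of *Mcm6* among them, lie in no GENCODE transcript. Among the 12 windows of replication and nucleotide genes, 7 held an E2F core, 3 a CHR and 10 a CCAAT. The 16 windows of mitotic kinase, checkpoint, kinetochore and spindle genes held an E2F core in 0, a CHR in 4 and a CCAAT in 13. Of the windows outside these sets, the 4 of cyclin and CDK genes held an E2F core in 2, a CHR in 2 and a CCAAT in 3. The 2 windows of *Mki67* and *Top2a* held them in 1, 2 and 2, and the window of *E2f1* held none of them. A stretch of 150 bases is printed for 8 members, all with a CCAAT and with a CHR or an E2F core beside it. *Top2a*, *Cdc20* and *Kif11* have CCAAT and CHR letters, and *Mki67* holds all 3 motifs. *Ccnb1*, the member with the lowest p across birth, and the replication genes *Mcm6*, *Mcm5* and *Rrm1* have CCAAT and E2F letters. These stretches do not show the whole range. The windows of *Ccne1*, *Birc5*, *Melk*, *Nusap1*, *Tyms* and *E2f1* held none of the motifs. Others, such as those of *Bub1*, *Ttk*, *Cenpf* and *Plk1*, held CCAAT alone. Each stretch ends at the RefSeq start, except that it ends 9 bases before it in *Cdc20* and 84 before it in *Ccnb1*, where the annotated gene reaches further upstream. Capitals mark the letters of any of the motifs.
Top2a, chr11:99024190-99024339, minus strand: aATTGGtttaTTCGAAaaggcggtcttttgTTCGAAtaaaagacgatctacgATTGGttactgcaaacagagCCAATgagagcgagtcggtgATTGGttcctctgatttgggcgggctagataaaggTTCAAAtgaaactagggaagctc
Cdc20, chr4:118437353-118437502, minus strand: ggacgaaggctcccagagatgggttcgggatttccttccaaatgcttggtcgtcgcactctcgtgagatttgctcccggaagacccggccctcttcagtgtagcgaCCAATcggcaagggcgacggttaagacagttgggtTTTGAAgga
Kif11, chr19:37376232-37376381, plus strand: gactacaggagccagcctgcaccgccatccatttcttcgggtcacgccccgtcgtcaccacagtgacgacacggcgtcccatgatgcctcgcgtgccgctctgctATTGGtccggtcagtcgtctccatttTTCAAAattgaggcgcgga
Ccnb1, chr13:100786571-100786720, minus strand: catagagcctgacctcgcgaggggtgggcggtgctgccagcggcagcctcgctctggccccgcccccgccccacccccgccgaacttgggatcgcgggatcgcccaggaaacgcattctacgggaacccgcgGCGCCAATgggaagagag
Mki67, chr7:135716380-135716529, minus strand: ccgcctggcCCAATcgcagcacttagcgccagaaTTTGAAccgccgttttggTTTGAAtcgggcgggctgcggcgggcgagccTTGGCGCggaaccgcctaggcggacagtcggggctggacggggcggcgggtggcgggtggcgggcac
Mcm6, chr1:128359706-128359855, minus strand: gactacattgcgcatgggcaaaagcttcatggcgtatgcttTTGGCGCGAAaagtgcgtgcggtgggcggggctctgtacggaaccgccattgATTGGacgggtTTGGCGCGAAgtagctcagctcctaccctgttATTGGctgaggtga
Mcm5, chr8:75109359-75109508, plus strand: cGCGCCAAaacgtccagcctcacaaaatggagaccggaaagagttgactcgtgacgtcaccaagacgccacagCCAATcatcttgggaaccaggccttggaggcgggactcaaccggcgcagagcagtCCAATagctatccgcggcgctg
Rrm1, chr7:102441545-102441694, plus strand: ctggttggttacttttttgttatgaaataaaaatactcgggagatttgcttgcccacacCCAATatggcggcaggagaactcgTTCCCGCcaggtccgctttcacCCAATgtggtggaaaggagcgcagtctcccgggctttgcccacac
A match is a description of these letters and says nothing of binding, and the lack of one says only that the letters are not in the window.

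The deposited values are log2 RPKM, the RPM of a gene (its reads scaled by the total of the library) divided by the kilobases of its whole span, on the log2 scale. Library totals ran from 19457647 to 37209333 reads, and each member had between 22 and 19333 reads in each library, all above a detection floor of 3 reads. All 40 members passed the filter of a mean of at least 0.05 RPKM, as did 15627 genes in all. Per kilobase of span, the highest level was that of *Pcna*, the sliding clamp of the replication fork, with a mean of 28.5 RPKM over the 8 libraries, and the lowest that of *Melk*, a kinase of proliferating cells, with 0.217 RPKM. Among the members, 7 overlap a gene on the opposite strand (*Mcm7*, *Cdc45*, *Ccne2*, *Ccna2*, *Cdc20*, *Kif20a* and *Nusap1*) and *Foxm1* overlaps one on its own strand, so reads of neighbours may be mixed in, because the strand setting of the counting is not given in the sources used here. The names of annotated pseudogenes point to copies of *Pcna*, *Tyms*, *Ccnb1* and *Ccnb2*, whose reads are uncertain in the same way.

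Libraries of the same group stood far apart for these genes. P1.5 *Wfdc2*+/+ replicate 1 was the lowest of the 8 libraries in 35 of the 40 members and was below all E18.5 libraries in all 40. Replicate 2 of that group was above it in all 40, by a median of 2.82 on the log2 scale (0.77 to 3.64) where the median of all genes tested was 0.60, and it was at or above the lowest E18.5 library in 29 members. E18.5 *Wfdc2*GFP/GFP replicate 1 was the highest of the 8 libraries in 38 members. Over all genes tested, the median log2 RPKM was also highest in that library (0.02). It was lowest in P1.5 *Wfdc2*+/+ replicate 1 (−0.96), with P1.5 *Wfdc2*GFP/GFP replicate 1 at −0.95. The share of all genes with these ranks was not counted, so the ranks are not shown to be particular to the members. The median absolute difference between the replicates was 0.44 for the members in E18.5 *Wfdc2*+/+, 0.92 in E18.5 *Wfdc2*GFP/GFP, 2.82 in P1.5 *Wfdc2*+/+ and 0.77 in P1.5 *Wfdc2*GFP/GFP, against 0.14, 0.56, 0.80 and 0.38 for all genes tested. Replicate 1 carried the higher level in 35 and 40 members in the E18.5 groups, in the order of genotype given above, and replicate 2 carried it in 40 and 40 members in the P1.5 groups. The replicate number goes with sex-linked transcripts, since every replicate 1 had 4121 to 90980 reads of *Xist* and every replicate 2 had 1 to 13, while *Ddx3y*, on the Y chromosome, had 0 to 3 reads in replicate 1 and 972 to 2175 in replicate 2. By these transcripts the 2 libraries of a group were of opposite sex and so were not taken from the same animal. Sex and replicate number cannot be told apart, and the number of animals in a library is not given in the sources used here.

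**Figure D1:**
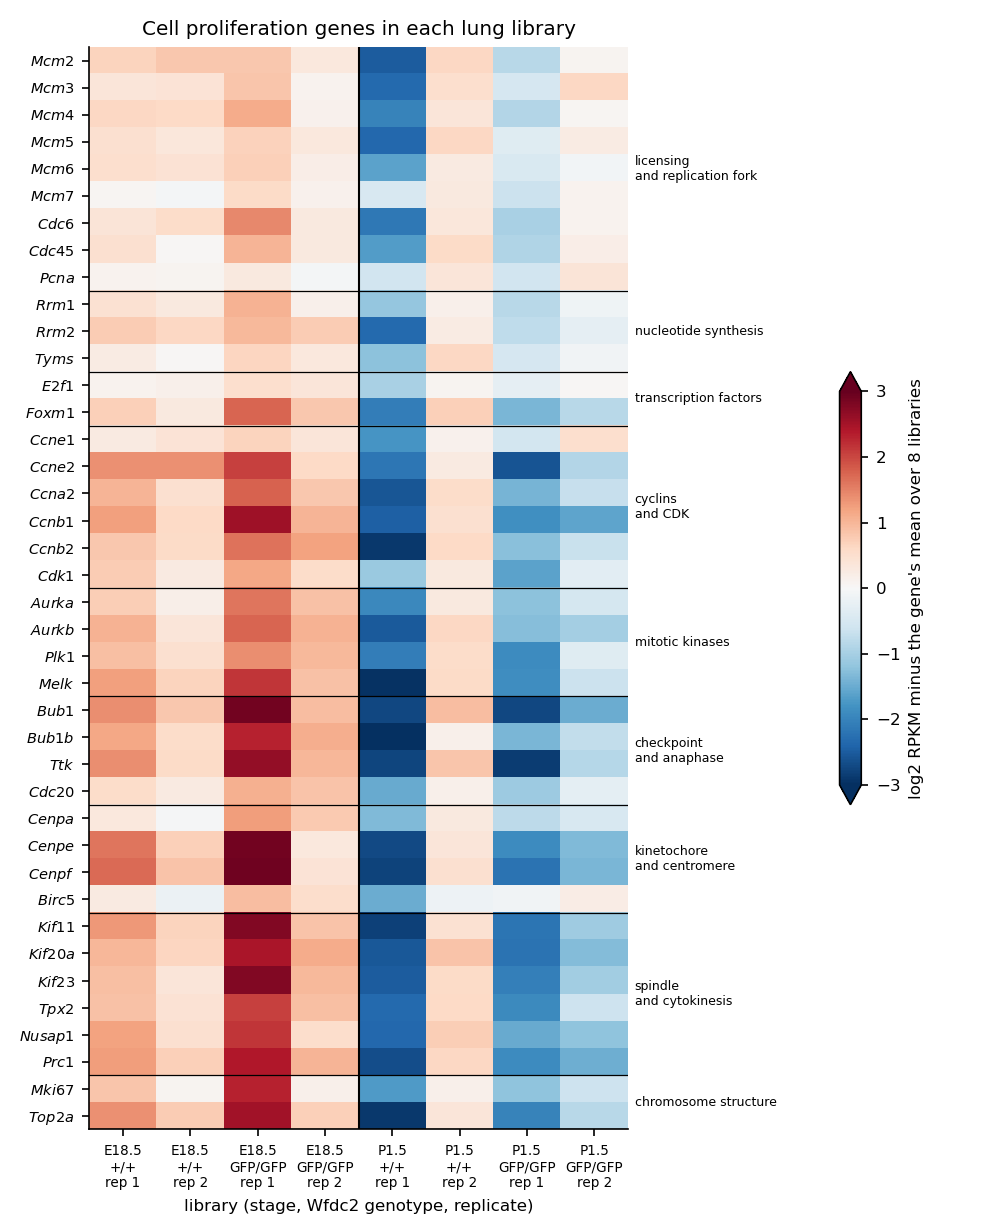
Heat map of the 40 members (rows, by role) in the 8 libraries (columns, by stage, *Wfdc2* genotype and replicate). Colour is log2 RPKM minus the mean of the gene over the 8 libraries, with values beyond 3 drawn in the end colours. E18.5 *Wfdc2*GFP/GFP replicate 1 is the reddest column, highest in 38 members, P1.5 *Wfdc2*+/+ replicate 1 the bluest, lowest in 35, and P1.5 *Wfdc2*+/+ replicate 2 is at or above the lowest E18.5 library in 29. No share of all genes is set beside these counts. The median of all genes tested was also highest in the reddest column and lowest in the bluest.

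Summed over the 40 genes, the lungs gave 2127 and 1619 RPM in E18.5 *Wfdc2*+/+, 4047 and 1767 in E18.5 *Wfdc2*GFP/GFP, 391.1 and 1615 in P1.5 *Wfdc2*+/+, and 597.7 and 1012 in P1.5 *Wfdc2*GFP/GFP (replicates 1 and 2 in this order, as in all values by library that follow). This is 0.0391% to 0.405% of the reads of a library. The 4 E18.5 sums were all above the 4 P1.5 sums, though P1.5 *Wfdc2*+/+ replicate 2 lay just under the lowest of them. Every member had a lower mean at P1.5 than at E18.5, averaged over the genotypes, with a median log2 change of −1.74 and a range from −3.01 for *Bub1* to −0.21 for *Pcna*. The median of all genes tested was −0.32. With each library centred on its median the members stood at −1.27 and all genes at 0.15, and 38 members had a lower mean, with *Mcm7* and *Pcna* higher.

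None of these differences passed limma's moderated test at an adjusted p under 0.05 over all genes, where 2.56% of the 15627 genes were called lower at P1.5. The members nearest to the threshold were *Ccnb1* (limma adjusted p = 0.0501), *Ccne2* (limma adjusted p = 0.0508) and *Prc1* (limma adjusted p = 0.0535). At an unadjusted p under 0.05, 29 of the 40 were lower and 0 higher, beside 26.7% of all genes lower. Without P1.5 *Wfdc2*+/+ replicate 2, 38 of the 40 were called lower, all but *Mcm7* and *Pcna*, at a median over the 40 of −2.37, while 35% of all genes were called lower and the median of all genes was −0.48. In that fit the single library left in P1.5 *Wfdc2*+/+ is assumed to vary like the other groups. Without P1.5 *Wfdc2*+/+ replicate 1, 3 of the 40 were called lower, at a median of −1.18, beside 2.03% of all genes. Without E18.5 *Wfdc2*GFP/GFP replicate 1, 0 were called, beside 0.16% of all genes, and 17 were lower at an unadjusted p under 0.05, beside 15.7%, at a median of −1.54.

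Scaling and the filter also changed the count. Median centring called 6 members lower (*Ccne2*, *Ccnb1*, *Bub1*, *Bub1b*, *Kif11* and *Prc1*) beside 3.61% of all genes. Limma's voom on the recovered reads called 6 lower (*Ccne2*, *Ccnb1*, *Bub1b*, *Cdc20*, *Kif20a* and *Prc1*) beside 4.65%, and 4 genes were shared by the 2 lists. With the filter raised to a mean of 0.5 RPKM, 23 of the 36 members left were called lower, beside 10% of the 9422 genes left. The 4 P1.5 libraries were all below the 4 E18.5 libraries for 10 members (*Rrm2*, *E2f1*, *Ccne2*, *Ccnb1*, *Melk*, *Bub1b*, *Cdc20*, *Kif11*, *Prc1* and *Top2a*), or 10 of 40, beside 13.7% of all genes. With P1.5 *Wfdc2*+/+ replicate 2 set aside, this held for 34 of 40, beside 36.7% of all genes.

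Averaged over genotypes, genes of replication licensing and the fork had the smallest median difference of the role groups, close to that of nucleotide synthesis. The order was not kept in *Wfdc2*+/+ alone, where the medians were −1.28 for licensing and −0.88 for nucleotide synthesis, nor without P1.5 *Wfdc2*+/+ replicate 2, where they were −1.56 and −1.31. The 9 members are the helicase subunits *Mcm2* to *Mcm7*, the licensing factor *Cdc6*, the helicase partner *Cdc45* and the clamp *Pcna*, and their log2 changes across birth ran from −1.33 for *Cdc6* to −0.21 for *Pcna*, with a median of −0.92 (−0.45 after median centring). *Mcm4* (chromosome 16, 15623897 to 15637400, mm10) had the lowest p of the group. Its log2 RPKM was 2.10 and 2.07 in E18.5 *Wfdc2*+/+, 2.58 and 1.59 in E18.5 *Wfdc2*GFP/GFP, −0.54 and 1.84 in P1.5 *Wfdc2*+/+ and 0.60 and 1.52 in P1.5 *Wfdc2*GFP/GFP. P1.5 *Wfdc2*+/+ replicate 2 was above the lowest E18.5 library, and the other 3 P1.5 libraries were below all E18.5 libraries. This gave a log2 change of −1.23 (standard error 0.52, limma adjusted p = 0.125). *Pcna* (chromosome 2, 132249162 to 132253314) stood at 4.89 and 4.88 in E18.5 *Wfdc2*+/+, 5.08 and 4.74 in E18.5 *Wfdc2*GFP/GFP, 4.21 and 5.15 in P1.5 *Wfdc2*+/+ and 4.23 and 5.17 in P1.5 *Wfdc2*GFP/GFP. Both P1.5 replicates numbered 2 were above every E18.5 library and both replicates numbered 1 below every one. Its log2 change of −0.21 (standard error 0.31, limma adjusted p = 0.611) turned to 0.26 after median centring. *Mcm7* was at −0.36 and turned to 0.11 in the same way.

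The 3 nucleotide synthesis genes had a median log2 change of −0.98, from −1.56 for *Rrm2* and −0.98 for *Rrm1*, the small and large subunits of ribonucleotide reductase, to −0.62 for *Tyms*, the thymidylate synthase. *Rrm2* (chromosome 12, 24708241 to 24714146) was at 3.03 and 2.87 in E18.5 *Wfdc2*+/+, 3.23 and 3.02 in E18.5 *Wfdc2*GFP/GFP, −0.07 and 2.50 in P1.5 *Wfdc2*+/+ and 1.5 and 1.99 in P1.5 *Wfdc2*GFP/GFP. Here all 4 P1.5 libraries lay under all 4 E18.5 libraries, with a log2 change of −1.56 (standard error 0.50, limma adjusted p = 0.0741). Of the 2 transcription factors, *E2f1*, which drives genes of S phase, differed by −0.56, and *Foxm1*, which drives genes of mitosis, by −1.79. *Foxm1* (chromosome 6, 128362967 to 128375893) was at 0.78 and 0.38 in E18.5 *Wfdc2*+/+, 1.83 and 0.89 in E18.5 *Wfdc2*GFP/GFP, −2.00 and 0.79 in P1.5 *Wfdc2*+/+ and −1.30 and −0.76 in P1.5 *Wfdc2*GFP/GFP. P1.5 *Wfdc2*+/+ replicate 2 was within the E18.5 range and the other 3 P1.5 libraries were below it, for a log2 change of −1.79 (standard error 0.58, limma adjusted p = 0.0741).

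The mitotic cyclins and *Ccne2* had larger differences than *Ccne1*. Log2 changes were −2.69 for *Ccnb1* and −2.11 for *Ccnb2*, the B-type cyclins, −2.04 for *Ccna2*, the cyclin of S and G2 phase, −1.37 for their kinase *Cdk1*, and −2.69 and −0.86 for the E-type cyclins *Ccne2* and *Ccne1*. *Ccnb1* (chromosome 13, 100778650 to 100786570) had the lowest p of all 40 members. Its log2 RPKM was 2.53 and 1.90 in E18.5 *Wfdc2*+/+, 3.84 and 2.32 in E18.5 *Wfdc2*GFP/GFP, −1.14 and 1.78 in P1.5 *Wfdc2*+/+ and −0.54 and −0.28 in P1.5 *Wfdc2*GFP/GFP. The groups did not overlap by stage, though P1.5 *Wfdc2*+/+ replicate 2 came within 0.12 of the lowest E18.5 library. That is a 6.46-fold lower mean at P1.5, a log2 change of −2.69 (standard error 0.63, limma adjusted p = 0.0501). The 4 mitotic kinases *Melk*, *Aurkb*, *Plk1* and *Aurka* had log2 changes of −2.46, −2.10, −1.88 and −1.70. *Aurka* (chromosome 2, 172356190 to 172370535), the kinase of the spindle poles, was at 0.52 and −0.05 in E18.5 *Wfdc2*+/+, 1.37 and 0.66 in E18.5 *Wfdc2*GFP/GFP, −2.17 and 0.07 in P1.5 *Wfdc2*+/+ and −1.45 and −0.75 in P1.5 *Wfdc2*GFP/GFP. The P1.5 *Wfdc2*+/+ replicate 2 value was above the E18.5 *Wfdc2*+/+ replicate 2 value, and the other 3 P1.5 libraries lay under all E18.5 libraries, for a log2 change of −1.70 (standard error 0.50, limma adjusted p = 0.0638).

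Averaged over genotypes, checkpoint and spindle genes had the largest median differences, while in *Wfdc2*+/+ alone the spindle genes (−1.66) came after the cyclins (−1.80). The checkpoint kinases *Bub1*, *Bub1b* and *Ttk*, which hold the cell in metaphase until every kinetochore is attached, had log2 changes of −3.01, −2.56 and −2.80, and *Cdc20*, the activator of the anaphase-promoting complex, one of −1.37. *Bub1b* (chromosome 2, 118598211 to 118641591) was at 0.23 and −0.39 in E18.5 *Wfdc2*+/+, 1.37 and 0.16 in E18.5 *Wfdc2*GFP/GFP, −4.10 and −0.78 in P1.5 *Wfdc2*+/+ and −2.31 and −1.68 in P1.5 *Wfdc2*GFP/GFP. All P1.5 libraries were under all E18.5 libraries, for a 5.90-fold lower mean and a log2 change of −2.56 (standard error 0.69, limma adjusted p = 0.0582). Among the kinetochore and centromere genes, log2 changes were −2.77 for the motor *Cenpe*, −2.93 for *Cenpf*, −1.15 for the centromeric histone *Cenpa* and −0.76 for *Birc5*, survivin of the chromosomal passenger complex. *Cenpf* (chromosome 1, 189640599 to 189688086) was at 0.78 and −0.08 in E18.5 *Wfdc2*+/+, 1.98 and −0.53 in E18.5 *Wfdc2*GFP/GFP, −3.71 and −0.44 in P1.5 *Wfdc2*+/+ and −3.14 and −2.30 in P1.5 *Wfdc2*GFP/GFP. P1.5 *Wfdc2*+/+ replicate 2 was just above E18.5 *Wfdc2*GFP/GFP replicate 2, and E18.5 *Wfdc2*GFP/GFP replicate 1 stood well above the rest, for a log2 change of −2.93 (standard error 0.80, limma adjusted p = 0.0589).

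The 6 spindle and cytokinesis genes had a median log2 change of −2.55 (−2.08 after median centring). They are the motors *Kif11* (−2.80), *Kif20a* (−2.59) and *Kif23* (−2.50), the microtubule binders *Tpx2* (−2.13) and *Nusap1* (−2.18), and the midzone crosslinker *Prc1* (−2.69). *Prc1* (chromosome 7, 80294450 to 80316259) was at 1.42 and 0.86 in E18.5 *Wfdc2*+/+, 2.55 and 1.18 in E18.5 *Wfdc2*GFP/GFP, −2.51 and 0.77 in P1.5 *Wfdc2*+/+ and −1.73 and −1.30 in P1.5 *Wfdc2*GFP/GFP. Its P1.5 libraries did not overlap its E18.5 libraries, though the gap was 0.09 between P1.5 and E18.5 *Wfdc2*+/+ replicate 2, and the difference was a log2 change of −2.69 (standard error 0.68, limma adjusted p = 0.0535). The last 2 members organise chromosomes. *Top2a* (chromosome 11, 98992943 to 99024189), the topoisomerase that untangles sister chromatids, was at 2.85 and 2.23 in E18.5 *Wfdc2*+/+, 3.99 and 2.18 in E18.5 *Wfdc2*GFP/GFP, −1.41 and 1.84 in P1.5 *Wfdc2*+/+ and −0.54 and 0.65 in P1.5 *Wfdc2*GFP/GFP, without overlap between the stages and with a log2 change of −2.68 (standard error 0.73, limma adjusted p = 0.0589). *Mki67* (chromosome 7, 135689788 to 135716379), the Ki-67 antigen used to stain dividing cells, was at 2.82 and 2.07 in E18.5 *Wfdc2*+/+, 4.29 and 2.15 in E18.5 *Wfdc2*GFP/GFP, 0.30 and 2.15 in P1.5 *Wfdc2*+/+ and 0.78 and 1.36 in P1.5 *Wfdc2*GFP/GFP. For *Mki67* the P1.5 *Wfdc2*+/+ replicate 2 level lay within the E18.5 range and the other 3 P1.5 levels below it, for a log2 change of −1.68 (standard error 0.56, limma adjusted p = 0.0782).

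**Figure D2:**
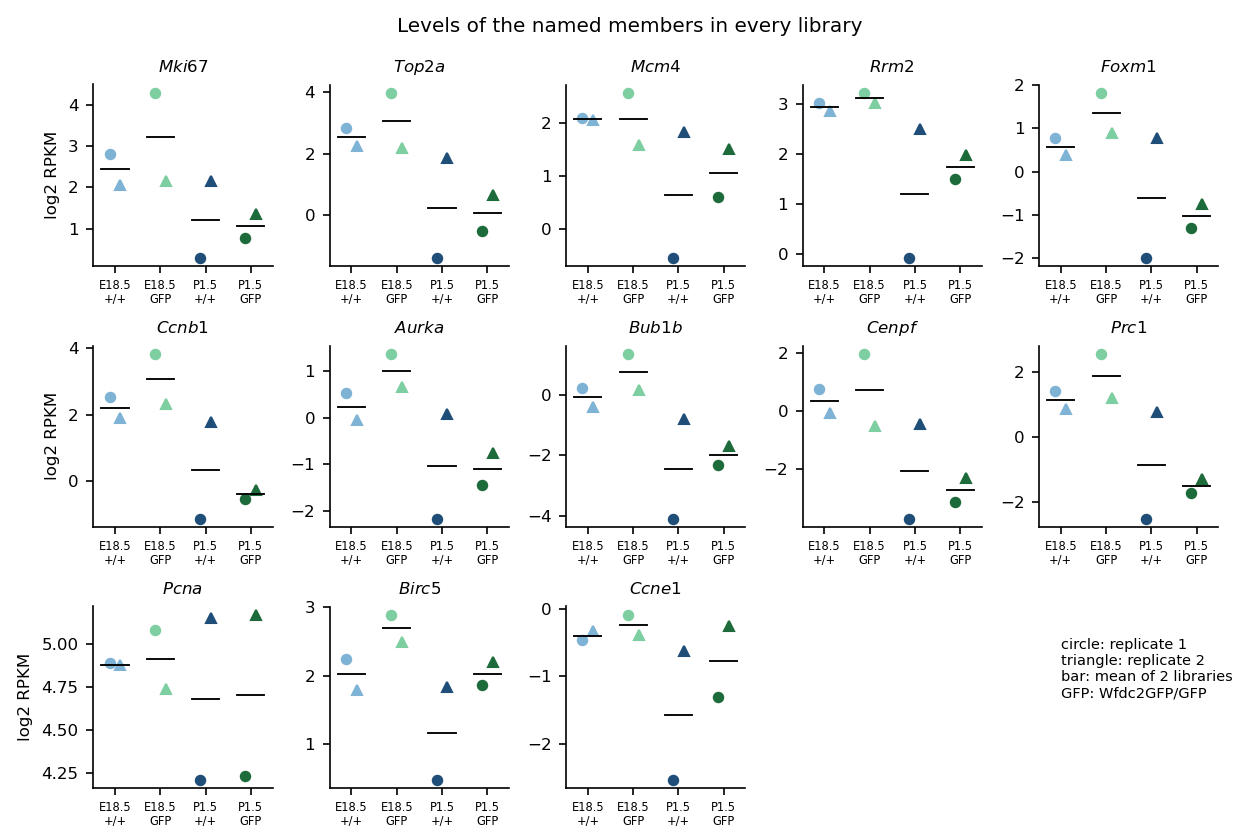
Log2 RPKM of the 13 members given by library, 1 panel each, with the vertical scale of each panel its own. Points are libraries (circles replicate 1, triangles replicate 2), bars the mean of the 2 libraries of a group. In most panels the P1.5 *Wfdc2*+/+ triangle lies near the E18.5 points and the other P1.5 points lie lower, while *Pcna* splits by replicate number at P1.5.

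Averaged over genotypes, the median difference across birth was larger for the mitotic than for the replication members. For the 18 mitotic kinase, checkpoint, kinetochore and spindle members the median log2 change was −2.48 and all 18 had an unadjusted p under 0.05. The 12 licensing, fork and nucleotide members had a median of −0.92 and 3 of them had such a p, near the 26.7% of all genes lower. The mitotic and replication medians were −1.66 and −1.21 in *Wfdc2*+/+ alone, and −2.76 and −0.86 in *Wfdc2*GFP/GFP alone. In *Wfdc2*+/+ alone, 1 mitotic and 1 replication member had such a p, beside 4.93% of all genes lower. A gap between medians inside 1 library does not depend on the scaling of the library. The median log2 RPKM of the mitotic members minus that of the replication members was −0.90 and −1.61 in E18.5 *Wfdc2*+/+, −0.13 and −0.96 in E18.5 *Wfdc2*GFP/GFP, −2.21 and −1.42 in P1.5 *Wfdc2*+/+ and −2.65 and −2.55 in P1.5 *Wfdc2*GFP/GFP. The 3 lowest values were at P1.5 and the 3 highest at E18.5, and P1.5 *Wfdc2*+/+ replicate 2 and E18.5 *Wfdc2*+/+ replicate 2 crossed over. In counts, the licensing and fork genes made 171.1 to 509.6 RPM at P1.5 and 421.6 to 612.5 at E18.5, and the spindle genes 24.59 to 218.4 and 204.9 to 751.2. These values are a description, with no test.

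**Figure D3:**
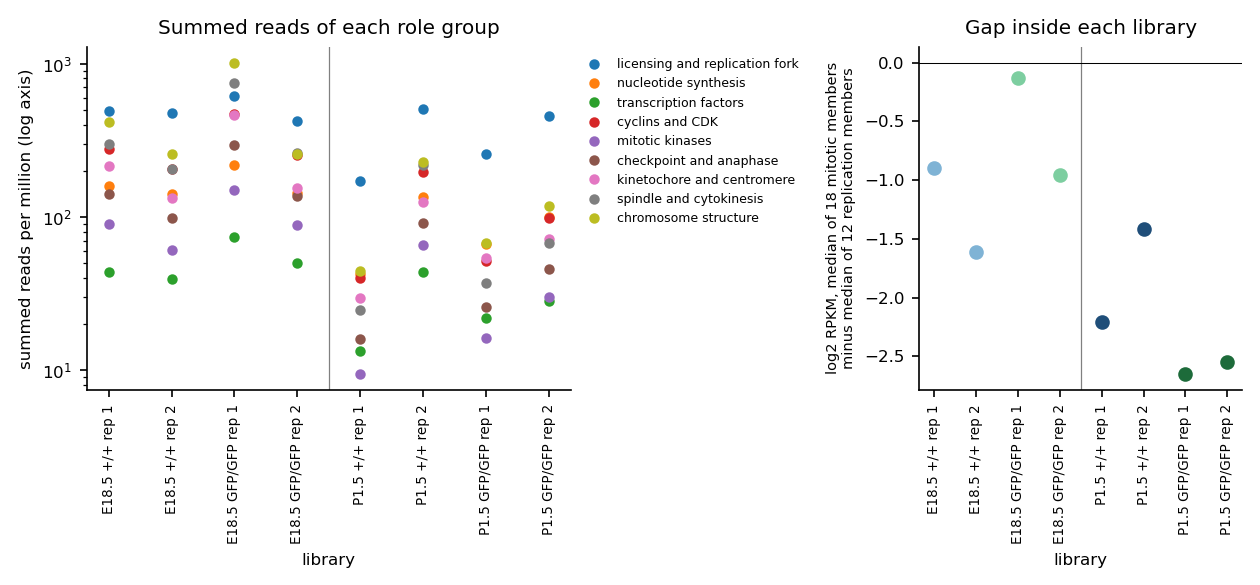
Left, RPM summed over each role group (colours) in each library, on a log axis. Right, the gap in each library between the median log2 RPKM of 18 mitotic and 12 replication members. At P1.5 the licensing group spans 171.1 to 509.6 RPM and the spindle group 24.59 to 218.4, and the gap runs from −2.65 to −1.42 at P1.5 and from −1.61 to −0.13 at E18.5.

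The difference across birth was next taken within each genotype. In *Wfdc2*+/+ lungs all 40 members had a lower mean at P1.5, with a median log2 change of −1.49 where all genes stood at −0.15. None passed the adjusted threshold in limma, beside 0.032% of all genes lower, and 3 had an unadjusted p under 0.05, beside 4.93%. Both P1.5 libraries were below both E18.5 libraries in 18 of 40 members, beside 28.2% of all genes. The values depended on the P1.5 *Wfdc2*+/+ library that was kept. Without replicate 2 the median was −2.87 and 33 members were called lower, beside 10.3% of all genes. Without replicate 1 it was −0.17, with 31 members lower and 9 higher, where all genes stood at 0.17.

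In *Wfdc2*GFP/GFP lungs all 40 members also had a lower mean at P1.5, with a median of −2.23, and all genes stood at −0.46. Limma called 0 at the adjusted threshold, beside 2.94% of all genes lower, and 25 at an unadjusted p under 0.05, beside 26% of all genes. The lowest adjusted p was that of *Ccnb1* (log2 change −3.49, limma adjusted p = 0.0572). Without E18.5 *Wfdc2*GFP/GFP replicate 1, 1 member was lower at an unadjusted p under 0.05, beside 11.2% of all genes, at a median of −1.81. Of the 25, 17 were among the 18 mitotic members and 0 among the 12 replication members. When the 4 *Wfdc2*GFP/GFP libraries were fitted alone, without the spread of the *Wfdc2*+/+ libraries, 26 members were called lower, beside 14.5% of all genes, and 17 of these were mitotic and 1 a replication member. Both P1.5 libraries were below both E18.5 libraries in 37 of 40, beside 48.5% of all genes. The largest log2 changes in this genotype were −4.03 for *Bub1*, −3.67 for *Ttk* and −3.52 for *Kif20a*, and the smallest −0.21 for *Pcna*.

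**Figure D4:**
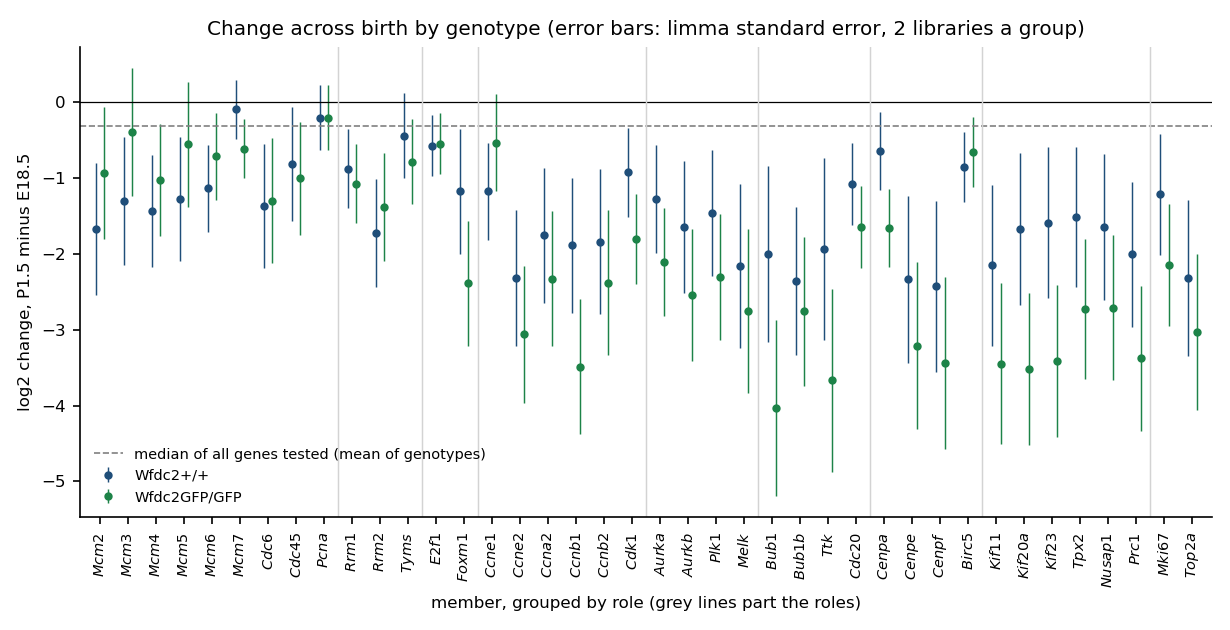
Log2 change across birth (P1.5 minus E18.5) of each member in *Wfdc2*+/+ (blue) and *Wfdc2*GFP/GFP (green), with limma standard errors as bars and 2 libraries in each group. The dashed line marks −0.32, the median of all genes. All points are below 0, and the *Wfdc2*GFP/GFP point is the lower one for most mitotic genes.

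The genotype comparisons ask whether loss of *Wfdc2* goes with another level of these genes before or after birth. At E18.5, 36 members had a higher and 4 a lower mean in *Wfdc2*GFP/GFP, with a median log2 difference of 0.52 where all genes stood at 0.09. No member passed the adjusted threshold in limma, beside 0.0192% of all genes, and 0 had an unadjusted p under 0.05, beside 4.37%. Without E18.5 *Wfdc2*GFP/GFP replicate 1 the median was 0.03, with 23 members higher and 17 lower.

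At P1.5, 25 members had a lower and 15 a higher mean in *Wfdc2*GFP/GFP, with a median of −0.09 where all genes stood at −0.20. After median centring 16 were lower and 24 higher, with a median of 0.11. The adjusted threshold was passed by 0 members in limma, beside 0.0128% of all genes, and the unadjusted one by 0, beside 10.9%. In 31 members both *Wfdc2*GFP/GFP libraries lay between the 2 *Wfdc2*+/+ libraries. The direction turned with the *Wfdc2*+/+ library that was kept, from a median of 1.03 with all 40 higher without replicate 2 to −1.24 with 39 lower without replicate 1. *Birc5* had the lowest p of the members here, with a log2 RPKM of 2.25 and 1.79 in E18.5 *Wfdc2*+/+, 2.89 and 2.49 in E18.5 *Wfdc2*GFP/GFP, 0.48 and 1.83 in P1.5 *Wfdc2*+/+ and 1.86 and 2.20 in P1.5 *Wfdc2*GFP/GFP. At P1.5 the *Wfdc2*+/+ levels both lay under the *Wfdc2*GFP/GFP levels, and the means differed by 0.87 on the log2 scale (standard error 0.46, limma adjusted p = 0.543). The difference was 0.20 without P1.5 *Wfdc2*+/+ replicate 1 and 1.54 without its replicate 2. *Ccne1* was next, at −0.47 and −0.33 in E18.5 *Wfdc2*+/+, −0.09 and −0.39 in E18.5 *Wfdc2*GFP/GFP, −2.53 and −0.63 in P1.5 *Wfdc2*+/+ and −1.30 and −0.25 in P1.5 *Wfdc2*GFP/GFP. Its *Wfdc2*+/+ replicate 2 level lay between the 2 *Wfdc2*GFP/GFP levels, for a difference of 0.80 (standard error 0.64, limma adjusted p = 0.7), which turned to −0.14 without *Wfdc2*+/+ replicate 1.

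The difference of the birth change between genotypes was tested as the interaction of stage and genotype. The members had a median of −0.66, with 30 lower and 10 higher, and all genes stood at −0.33. After median centring the median was −0.25. Limma called 0 members, beside 0% of all genes, and 0 at an unadjusted p under 0.05, beside 10.2%. Without P1.5 *Wfdc2*+/+ replicate 2 the median was 0.53 and without replicate 1 it was −1.96. The sign turned with the library left out, and the difference across birth was not shown to differ between the genotypes.

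Genes outside the 40 were taken from lists of the same pathways. Of 52 other mitotic genes, 2 fell across birth at an adjusted p under 0.05 and 0 rose, where 2.56% of all genes fell, and 45 had a lower mean at an unadjusted p under 0.05, where 26.7% of all genes did. The median was −1.97. *Ect2*, which starts the cleavage furrow, fell by 2.55 on the log2 scale (limma adjusted p = 0.0431), and *Hjurp*, which loads the centromeric histone, fell by 1.79 (limma adjusted p = 0.0335). *Ect2* stood at −0.68, −1.09, 0.57 and −1.66 log2 RPKM in the E18.5 libraries and at −3.36, −2.03, −4.04 and −3.65 in the P1.5 libraries, both in the order given above, so that the stages did not overlap. *Hjurp* stood at 2.57, 2.34, 4.49 and 3.15 before birth and at 1.24, 1.69, 1.05 and 1.42 after it, again without overlap. Of 32 other replication genes, 0 were called in either direction, 12 had a lower mean at an unadjusted p under 0.05 and 1 a higher one, and the median was −0.69. A list of 13 chromatin genes of S phase, made of 10 replication-dependent histone genes, the variants *H2afx* and *H2afz* and the HMG-box gene *Hmgb2*, had 0 calls and a median of −0.61, and up to 6 of its genes had no reads in a library.

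Of 16 G1 cyclins, kinases and activators, 1 fell and 0 rose, beside the same 2.56% of all genes, with a median of −0.92. The gene was *Skp2*, which targets the inhibitor p27 for degradation, and it fell by 3.24 on the log2 scale (limma adjusted p = 0.0464). It had 608, 442, 1450 and 376 reads in the E18.5 libraries and 26, 185, 16 and 58 in the P1.5 libraries, and its log2 RPKM was at most −1.58 after birth and at least −1.15 before it. Of 28 cell cycle inhibitors and quiescence genes, 27 were tested, 2 fell and 0 rose, again beside 2.56% of all genes, with a median of −0.51 that median centring moved to −0.04. *Tob1*, an antiproliferative factor, fell by 1.79 (limma adjusted p = 0.0174), from 3.30, 3.49, 2.97 and 3.33 log2 RPKM before birth to 1.31, 1.90, 1.05 and 1.66 after it. *Cdkn1c*, the inhibitor p57, fell by 1.09 (limma adjusted p = 0.0451), from 6.58, 6.66, 6.49 and 6.72 to 5.51, 6.06, 5.48 and 5.03, and after median centring by 0.62 (limma adjusted p = 0.158), where its call was lost. Both inhibitors were lower after birth, as were the means of the proliferation genes. The list did not move as 1, since 18 of its 27 tested genes had a lower mean and 9 a higher one. Its log2 changes ran from −1.79 to 2.07. Without P1.5 *Wfdc2*+/+ replicate 2, the median log2 change was −2.58 for the 52 mitotic genes and −1.12 for the 32 replication genes. It was −1.17 for the 16 G1 genes and −0.45 for the 27 inhibitor and quiescence genes, where all genes stood at −0.48.

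Marker genes of the cell types of lung were summed in each library, because whole lung was sequenced. The 10 fibroblast and smooth muscle markers gave 4588 to 6434 RPM at E18.5, 1331 and 7291 in P1.5 *Wfdc2*+/+ and 2185 and 3049 in P1.5 *Wfdc2*GFP/GFP. They were lowest in P1.5 *Wfdc2*+/+ replicate 1, as the summed proliferation genes were, and in replicate 2 of that group they were above all E18.5 libraries. Of these 10 genes *Pdgfra* fell across birth (log2 change −1.57) and *Tagln* rose (1.76), where 2.56% of all genes were called lower and 2.58% higher. By mean, 9 of the 10 were lower at P1.5 and 1 higher, with a median log2 change of −1.07 (−0.60 after median centring). Without P1.5 *Wfdc2*+/+ replicate 2, 9 of the 10 were called lower, beside 35% of all genes. The 10 alveolar epithelium markers gave 9241 to 24330 at E18.5, 62010 and 30860 in P1.5 *Wfdc2*+/+ and 71810 and 51430 in P1.5 *Wfdc2*GFP/GFP, with 0 calls. Most of each sum was *Sftpc*, the gene of surfactant protein C, and without it the other 9 gave 2798 to 6153 at E18.5 and 6880 to 9470 at P1.5. By gene, 7 of the 10 had a lower mean at P1.5, with a median log2 change of −0.10. The sums, with and without *Sftpc*, were lowest in E18.5 *Wfdc2*GFP/GFP replicate 1, where the proliferation genes were highest. This was not particular to alveolar markers. Leukocyte and endothelial sums, described next, were also lowest in that library, at 277.6 and 1936 RPM. Its erythroid and cardiac muscle sums were not the lowest, and its fibroblast and smooth muscle sum, 6434 RPM, was the highest at E18.5.

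The 12 leukocyte markers gave 277.6 to 469.7 RPM at E18.5 and 955.4 to 1904 at P1.5. The lowest P1.5 sum was again that of *Wfdc2*+/+ replicate 2. Across birth their median log2 RPKM went from 0.92 and 0.99 to 1.04 and 1.21 for *Wfdc2*+/+. For *Wfdc2*GFP/GFP it went from −0.03 and 0.88 to 1.98 and 2.12. By this median the lowest P1.5 library was *Wfdc2*+/+ replicate 1. Of 11 tested, 5 rose across birth (*S100a8*, *S100a9*, *Cd79a*, *Tyrobp* and *Coro1a*, by 1.73 to 4.23 on the log2 scale) and 0 fell. Beside this, 2.58% of all genes were called higher. By mean, 9 of the 11 were higher at P1.5 and 2 lower, with a lowest log2 change of −0.64. *Cd3e* had no reads in 2 libraries. The 10 endothelial markers ran from 1936 to 3033 at E18.5 and from 2461 to 3764 at P1.5, and of them *Egfl7* rose (1.59). By gene, 6 of these 10 had a lower mean at P1.5 and 4 a higher one, with a median log2 change of −0.29. Erythroid markers, of which 11 of 12 were found and 8 tested, gave 152.3 to 305.3 and 161.3 to 333.5, with 0 calls, and *Hemgn* and *Rhag* had no reads in P1.5 *Wfdc2*GFP/GFP replicate 1. Cardiac muscle markers ran from 165.5 to 758.2 at E18.5 and from 322.8 to 918 at P1.5, and of the 7 tested *Tnni3* rose (1.99). Of these 7, 5 had a higher mean at P1.5 and 2 a lower one, with a lowest log2 change of −1.48. The part of any of these cell types in the levels of the proliferation genes was not tested.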

How the data were processed

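Total lung RNA of the 8 libraries was made into directional libraries and sequenced on either of 2 Illumina instruments, and which library was run on which is not given in the sources used here. The authors trimmed the reads with NGS QC Toolkit and Trim Galore 0.4.0, mapped them to mm10 with TopHat2 2.1.1 guided by mRNA coordinates, counted them in SeqMonk and deposited log2 RPKM. In these values the length is that of the whole gene, introns included, and 0.9 read stands for no reads. The values step by whole reads, so reads were recovered, and 99.86% to 99.97% of values in a library lay within 0.02 of a whole number.

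Titles and genotype labels gave the 4 groups. The moderated test of limma 3.58.1 (R 4.3.3, trend option on) was run on the deposited log2 RPKM, with no pseudocount, over the 15627 genes whose mean reached 0.05 RPKM. All 8 libraries entered with a mean for each group, which left 4 residual degrees of freedom. P-values are two-sided and adjusted by the Benjamini-Hochberg method over all genes, with a threshold of 0.05. The members and lists were chosen with earlier results of these data known. Values by library are given for *Mki67*, *Top2a*, the member with the lowest p in each role group, the most abundant member and the 2 members with the lowest p between genotypes at P1.5, and from each pathway list for up to 2 called genes in each direction. Other genes of a list were named after their values were seen. Markers were summed from recovered reads. Motifs were counted in RefSeq promoter sequences (GRCm38.p6). Alternatives are given in the closing section. The fits were also run on simulated counts, drawn gene by gene and with the same expected level in the replicates of a group. These counts do not cover the spread between the P1.5 *Wfdc2*+/+ libraries or members that move together. Python 3.11.15 made the summaries and figures.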

Additional observations from a re-analysis of the deposited data

How the results depend on the processing

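The lower level of the proliferation genes at P1.5 kept its direction in the median of the members under all alternatives run (−2.37 to −0.85, the latter with a pseudocount of 1 RPKM). Some of these alternatives could not move it. With the replicate block, without a filter and with the other priors the median was bound to stay at −1.74. The number called did change. Averaged over genotypes it was 0 as reported, 6 with voom, 6 with median centring, 3 with quantile normalization (beside 3.63% of all genes lower), 2 with a pseudocount of 0.1 RPKM (3.14%), 23 of 36 with a filter of 0.5 RPKM, 27 at an adjusted p under 0.1 (21.7%), 31 with median centring and without P1.5 *Wfdc2*+/+ replicate 2 together (12%, chosen after seeing the data), and 0 to 38 with 1 library left out, with 10 without E18.5 *Wfdc2*GFP/GFP replicate 2 (11.3%), 3 without P1.5 *Wfdc2*+/+ replicate 1 and 38 without its replicate 2. It stayed at 0 with a pseudocount of 1 RPKM, without a filter, with a prior without a trend and with a robust prior. In *Wfdc2*+/+ the count ran from 0 to 33 and the median from −2.87 to −0.17 with 1 library left out. In *Wfdc2*GFP/GFP the count was 4 with a filter of 0.5 RPKM (6.32% of all genes), 26 in the 4 libraries alone, 21 at an adjusted p under 0.1 (18.6%) and 0 to 26 with 1 library left out, where 2 were called without E18.5 *Wfdc2*GFP/GFP replicate 2 (8.73%) and 26 without P1.5 *Wfdc2*+/+ replicate 1 (23.9%) or replicate 2 (23.8%), and the median became −1.13 when 1 RPKM was added. The median of the genotype difference at P1.5 ran from −1.24 to 1.03 and that of the interaction from −1.96 to 0.53 with 1 library left out, and at E18.5 from 0.03 to 0.99. *Pcna* turned to 0.13 with voom, to 0.26 with median centring, with or without the block, and to 0.02 and 0.03 without P1.5 *Wfdc2*+/+ replicate 1 and without P1.5 *Wfdc2*GFP/GFP replicate 1 (−0.45 to 0.03 over all libraries left out), and *Ccne1* at P1.5 turned to −0.14 (−0.14 to 1.75), while *Birc5* ran from 0.20 to 1.54. Over all genes the calls ran from 28 to 7125 (803 as reported) for the mean of the genotypes, 0 to 2166 (9) in *Wfdc2*+/+, 0 to 4874 (711) in *Wfdc2*GFP/GFP, 0 to 22 (3) at E18.5, 0 to 24 (2) at P1.5 and 0 to 2 (0) for the interaction. The causes were not tested.

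Replicate numbers are shared by the groups, and with them the sex of the libraries, but are not stated to pair the samples, and with 2 numbers the deviations of same-numbered libraries correlated at −0.29 to 0.23. With the replicate number as a block, 0 members were called in each of the 6 comparisons, at a median across birth of −1.74, or −1.27 with median centring, and calls over all genes across birth were 287 in place of 803. Each group holds both replicate numbers, so the block cannot change these medians. It takes up only a shift shared by all groups. Most members were higher in replicate 1 at E18.5 and all were higher in replicate 2 at P1.5, which such a block does not remove.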
